A study of Homo sapiens with 27 samples.

Results

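The genes for the proteins of the cytosolic ribosome were followed in 3 human prostate cancer cell lines treated with IPI-9119, which inhibits FASN, the fatty acid synthase that makes palmitate. Members were taken by name alone: symbols of RPL or RPS and digits, with or without a closing A or X, plus RPLP0, RPLP1, RPLP2, RPSA and FAU. A member also had to reach a normalised read count of 10 in at least 3 of the 27 libraries. The deposited data cover 20987 genes, of which 78 rows matched, and 77 were kept, 46 of the large subunit and 31 of the small. The row left out did not reach that minimum. The lowest member was RPL36A, from 8.24 to 76.0, and it passed the minimum in 26 libraries; each of the other members passed it in all 27.

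LNCaP cells, which the labels call androgen sensitive, and 22Rv1 and LNCaP95 cells, called castration resistant, each received DMSO, the vehicle, or IPI-9119 at 100 nM or 500 nM. Treatment lasted 6 days with no replacement of the medium, so every group, DMSO included, had spent the same time in its medium. Each of the 9 groups has 3 libraries of poly(A)-selected RNA. Every group is 1 cell line, which stands for at most 1 tumour, and the lines need not come from separate tumours. Nothing in the labels says that replicates were separate cultures, so p-values measure the spread between these libraries, and that spread may be technical. In bulk RNA of this kind, fewer cells of a type and less RNA per cell cannot be told apart.

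A ribosome joins a small subunit, which reads the mRNA, to a large subunit, which forms the peptide bond and holds the exit tunnel of the growing chain. Most of its proteins are needed in equal numbers, and their mRNAs are among the most abundant in dividing cells. Most of these mRNAs begin with a C and a run of pyrimidines, the 5′ terminal oligopyrimidine (TOP) tract, through which the kinase complex mTORC1 and the RNA-binding protein LARP1 control their translation and stability. Elongation factors and PABPC1 carry such tracts too.

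The start regions below belong to the members on which the results turn. RefSeq promoter entries (GRCh38.p14, another build than the hg19 of the deposited data) were matched by symbol for 63 of the 77 members. Each window runs from 35 bases before the annotated start to 15 bases from it, 5′ to 3′ on the gene's strand, and capitals mark the pyrimidine run that opens with a C at the annotated start. The first 4 are shown because their mRNAs differed most between untreated LNCaP95 and LNCaP cells, RPL28 (chr19:55385897-55385946, plus strand), RPL13A (chr19:49487573-49487622, plus), RPS12 (chr6:132814534-132814583, plus) and RPL12 (chr9:127451392-127451441, minus).
RPL28: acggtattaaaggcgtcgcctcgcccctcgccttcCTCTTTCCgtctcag
RPL13A: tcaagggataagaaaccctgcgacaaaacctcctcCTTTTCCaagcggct
RPS12: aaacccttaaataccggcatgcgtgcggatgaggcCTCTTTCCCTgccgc
RPL12: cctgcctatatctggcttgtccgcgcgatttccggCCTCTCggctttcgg

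The next 2, FAU (chr11:65122120-65122169, minus) and RPL22 (chr1:6199581-6199630, minus), differed least between those lines.
FAU: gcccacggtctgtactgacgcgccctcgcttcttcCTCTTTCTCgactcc
RPL22: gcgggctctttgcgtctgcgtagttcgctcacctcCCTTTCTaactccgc

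RPS27 (chr1:153990727-153990776, plus), RPL10 (chrX:154398342-154398391, plus) and RPL24 (chr3:101686704-101686753, minus) changed in treated LNCaP95 cells, the first pair upward and RPL24 downward.
RPS27: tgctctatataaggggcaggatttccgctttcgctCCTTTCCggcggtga
RPL10: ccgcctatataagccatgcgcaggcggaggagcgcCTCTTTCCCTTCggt
RPL24: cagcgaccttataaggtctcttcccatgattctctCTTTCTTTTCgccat

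RPS26 (chr12:56041883-56041932, plus) and RPL17 (chr18:49492451-49492500, minus) had no C at the annotated start, and they stood at opposite ends of the response of LNCaP cells.
RPS26: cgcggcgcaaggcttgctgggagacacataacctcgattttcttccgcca
RPL17: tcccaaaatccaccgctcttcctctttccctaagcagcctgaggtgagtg

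A TOP start, counted as a C at an annotated start followed by at least 4 further pyrimidines, was found in 47 of the 63 members (74.6%) and in 1404 of all 27305 symbols with an entry (5.14%). The ETS core CGGAAG, searched on both strands from 250 bases before the start to 50 after it, was present in 40 of the 63 (63.5%) against 22.6% of all symbols. AAGATGGC, the core read by YY1, was present in 7 members (11.1%, against 3.52%), and the E-box CACGTG in 4 (6.35%, against 8.77%). These are matches of letters in a fixed window, not sites shown to be bound.

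Libraries held 14757874 to 26578881 reads in genes. Luminal prostate markers were present in every group, with a summed level over the 8 markers of 49332 to 109597, while the 3 basal markers summed to at most 18.5 in any library. The 5 stromal and blood markers summed to 765 to 1137 in LNCaP95 libraries and to 329 to 611 in the other lines. PECAM1 was at 0 throughout, and PTPRC, a leukocyte gene, lay at 65.4 to 139 in LNCaP95 and at 0 to 9.28 elsewhere. Most of each sum thus came from ACTA2, COL1A1 and COL1A2. The part of these genes in the differences between lines was not tested. Some libraries stood apart. In 22Rv1 at 100 nM, replicate 2 had a median member level 0.57 above its partners on the log2 scale, with 64 members more than 0.5 higher. In LNCaP95 DMSO, replicate 2 had the widest scatter over members (SD 0.33; RPL39 0.85 below its partners' mean, RPL26 0.57 above), against 0.218 in the next widest. Mitochondrially encoded genes took 7.56% and 6.92% of counts in replicate 2 of LNCaP95 at 100 nM and 500 nM and 1.69% to 4.45% elsewhere, and 12 mitosis genes averaged 10.1 on the log2 scale in LNCaP DMSO replicate 1 against 8.58 and 8.36 in replicates 2 and 3.

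The share of all normalised counts that fell on the 77 genes separated the lines. Untreated LNCaP libraries spent 13.4%, 15.2% and 15.6% of counts on them. Untreated 22Rv1 libraries spent 11.4%, 10.6% and 10.2%, and untreated LNCaP95 libraries 4.11%, 4.09% and 4.07%. The 3 lines did not overlap, and LNCaP95 had less than either other line in all 3 libraries.

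With IPI-9119 the share in LNCaP was 12.0%, 12.2% and 10.4% at 100 nM and 10.9%, 11.0% and 10.5% at 500 nM, every treated library below every DMSO library. In 22Rv1 it was 10.9%, 14.1% and 10.2% at 100 nM and 11.7%, 11.1% and 11.4% at 500 nM, and both doses overlapped DMSO. In LNCaP95 it was 4.04%, 4.30% and 4.37% at 100 nM and 3.92%, 4.47% and 4.53% at 500 nM, on both sides of the narrow DMSO range.

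**Figure D1:**
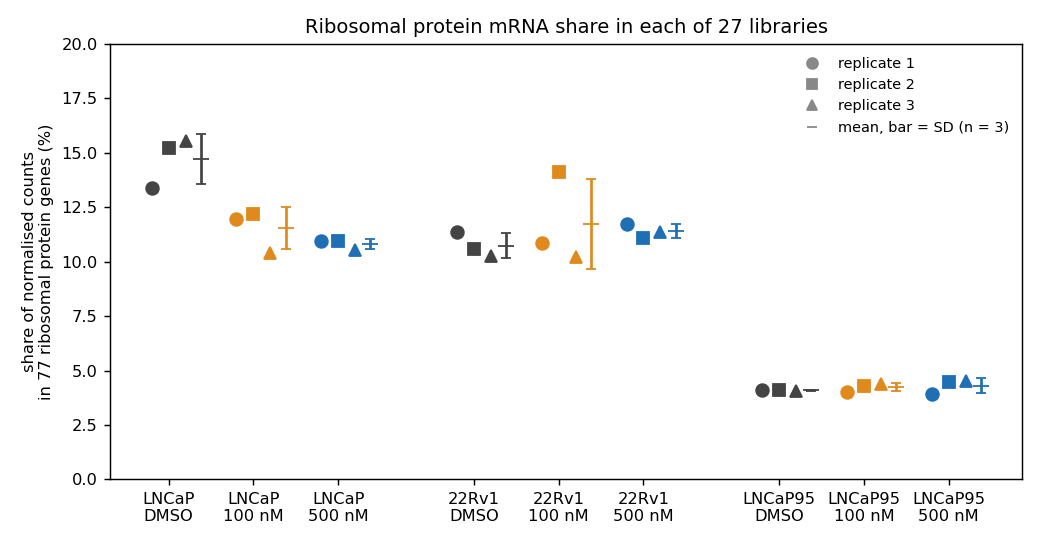
Share of normalised counts in the 77 ribosomal protein genes (y axis, percent) in each of the 27 libraries, by line and dose (x axis), with marker shape for the replicate and the mean and SD of each group beside it. All treated LNCaP libraries lie below the LNCaP DMSO libraries (13.4% to 15.6%), and every LNCaP95 library lies between 3.92% and 4.53%.

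In untreated cells, the lines were compared with each other. LNCaP is the only androgen-sensitive line, so androgen sensitivity cannot be told apart from other differences between the lines. The castration-resistant lines also lay apart, with mean shares of 10.7% in untreated 22Rv1 and 4.09% in untreated LNCaP95, against 14.7% in untreated LNCaP. All 77 members were lower in LNCaP95 than in LNCaP, with a median log2 fold change of -1.90 against 0.01 over all 14591 genes tested (limma, adjusted p under 0.05, as for every call here). Of all genes tested, 31.8% were called lower. All 77 also had every LNCaP95 library below every LNCaP library, as had 33.1% of all genes. Scaling libraries to equal totals moved the median of all genes to 0.21 and that of the members to -1.69; such a scaling shifts all genes of a library alike.

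RPL28, a protein of the large subunit, had 36342, 37436 and 37028 normalised counts in untreated LNCaP and 2828, 2851 and 2782 in LNCaP95, 13.1-fold lower (log2 fold change -3.71, adjusted p = 2.1e-16). RPL13A, also of the large subunit and a common reference gene for qPCR, had 142307, 152662 and 149815 against 10895, 13267 and 10319, 13.0-fold lower (-3.70). RPS12, on the head of the small subunit, had 39490, 40205 and 43463 against 4928, 5936 and 4316, 8.17-fold lower (-3.03). In each of these genes the 3 libraries of a line lay close together, far from those of the other line.

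At the other end stood RPL22, a large-subunit protein that binds RNA, with 4967, 5715 and 5623 counts in LNCaP and 3770, 3664 and 3906 in LNCaP95 (1.43-fold lower, log2 -0.52, adjusted p = 3.5e-05). FAU, whose product is a ubiquitin-like protein fused to the small-subunit protein eS30, was 1.55-fold lower (-0.64) and RPS27A, a fusion of ubiquitin with a small-subunit protein, 1.56-fold lower (-0.65). Both members made as such fusions were thus among the 3 least different. RPS26, at the mRNA exit, followed at -0.83.

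The other role groups lay between these ends in LNCaP95. The P stalk (RPLP0, RPLP1 and RPLP2), which recruits the GTPases of elongation, fell by 2.15, 2.45 and 1.93 on the log2 scale. RPL5 and RPL11, which form a particle with the smallest rRNA and can bind MDM2, fell by 1.66 and 1.71. RPS6, the substrate of S6 kinase, fell by 2.56. The 8 tunnel proteins ranged from -2.51 for RPL4 to -1.30 for RPL23A. Of the 4 reference genes RPLP0, RPL13A, RPL32 and RPS18, which are often taken as constant, the least changed was RPL32 at -1.79.

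Against 22Rv1, 76 of 77 members were lower in LNCaP95, with a median of -1.56, where 40.6% of all genes were called lower. The exception was RPL17, a protein at the tunnel exit, which was at 427, 408 and 384 in 22Rv1 and 405, 374 and 341 in LNCaP95 (log2 -0.12, not called). The same 76 had no overlap between the lines, against 41.7% of all genes. The lowest were RPL28 (-2.90), RPS12 (-2.72) and RPL13A (-2.52). This comparison shares its LNCaP95 libraries with the one above. RPL17, at 305 to 1546 over all libraries, shares part of its locus with the read-through row RPL17-C18orf32. How reads in the shared part were assigned is unknown, and whether the RPL17 row holds all reads of the gene was not tested. That limit applies to every comparison of RPL17. It applies also to RPS10 (225 to 1347), which has the read-through row RPS10-NUDT3 (0 to 6.36).

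22Rv1 differed from LNCaP in both directions. In it 54 members were lower and 3 higher, with a median of -0.56, where 34.8% of all genes were called lower and 39.4% higher. RPL17 was furthest down (1207, 1388 and 1546 counts in LNCaP; log2 -1.76, adjusted p = 2.6e-12). RPL37, a zinc-finger protein of the large subunit, fell from 27129, 32853 and 36473 to 13341, 11511 and 10888 (-1.43), and RPL13A by 1.18.

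The 3 members that were higher in 22Rv1 were RPS27A, RPS19 and RPL21. RPS27A had 16177, 17478 and 19511 counts in LNCaP and 27209, 23410 and 23707 in 22Rv1 (log2 0.48, adjusted p = 0.0047). RPS19, a small-subunit protein mutated in Diamond-Blackfan anaemia, had 20794, 22881 and 24563 against 32968, 30346 and 28434 (0.43, adjusted p = 0.012), and RPL21 was 0.29 higher. All 8 tunnel proteins were lower in 22Rv1 (median -0.78), as were 35 of the 46 large-subunit members and 34.8% of all genes. Neither RPL5 (-0.09) nor RPL11 (0.21) was called.

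**Figure D2:**
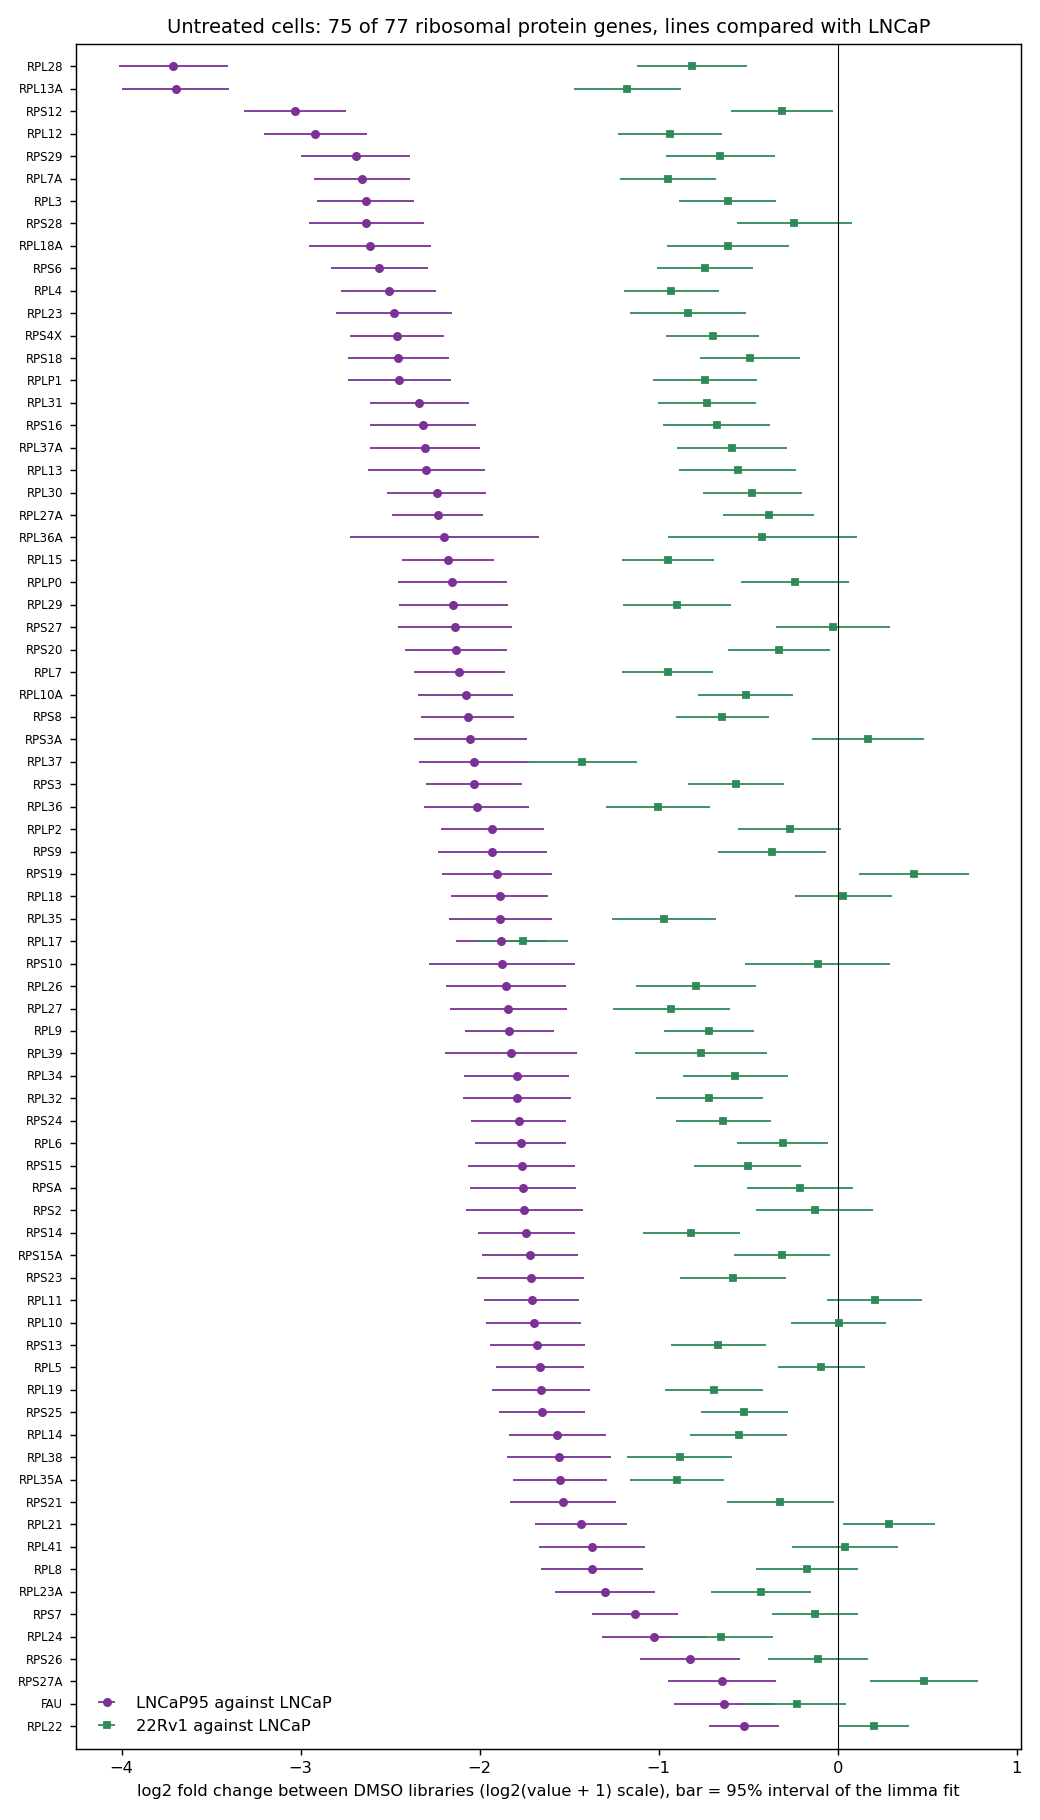
Log2 fold change between DMSO libraries (x axis) for 75 of the 77 members (y axis, sorted), LNCaP95 against LNCaP (circles) and 22Rv1 against LNCaP (squares), with the 95% interval of the limma fit as bars; both comparisons share the LNCaP libraries. Every LNCaP95 value is below 0, from -3.71 for RPL28 to -0.52 for RPL22, while 22Rv1 values lie from -1.76 for RPL17 to 0.48 for RPS27A.

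The gene-level differences were also read with each library scaled to its median member, which removes what all members share. On that scale 30 members were higher and 23 lower in LNCaP95 than in LNCaP. The scaling raises other genes in LNCaP95, so 84.8% of all genes were called higher and 3.85% lower. RPL22 stood 1.48 above the median member, FAU 1.37 and RPS27A 1.36, and RPL28 and RPL13A stood 1.71 and 1.69 below it. With any 1 of the 6 libraries left out, 23 of the 30 and 21 of the 23 were called each time.

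In LNCaP, ribosomal protein mRNA fell with IPI-9119. At 500 nM 65 of 77 members fell and none rose, with a median log2 fold change of -0.51 against -0.01 for all 12837 genes tested, of which 9.83% fell. All 77 changes were negative, from -0.87 to -0.24. In all 77 members every 500 nM library lay below every DMSO library, as in 21.3% of all genes. The large subunit (41 of 46 fell, median -0.52) and the small subunit (24 of 31, median -0.49) had similar medians.

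RPL17 fell furthest: 1207, 1388 and 1546 counts with DMSO, 988, 866 and 753 at 100 nM, and 780, 732 and 746 at 500 nM (1.82-fold lower at 500 nM, log2 -0.87 ± 0.12 SE, adjusted p = 0.00061). Part of its locus is shared with the read-through row RPL17-C18orf32, itself at 18.0 to 54.0, and the sources used here do not say how reads in such overlaps were counted. RPL12, at the base of the P stalk, had 38791, 40275 and 42310 counts with DMSO, 30509, 27593 and 21230 at 100 nM, and 24915, 24711 and 22234 at 500 nM (-0.76 ± 0.13 SE, adjusted p = 0.0024). RPS3, at the mRNA entry, had 50484, 49873 and 50328, then 38722, 38619 and 30723, then 31942, 31156 and 29749 (-0.70 ± 0.11 SE, adjusted p = 0.0015). In RPL17, RPL12 and RPS3 no treated library reached the lowest DMSO library.

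By role, both members of the RPL5 and RPL11 particle fell at 500 nM, by 0.66 and 0.38. RPL5 had 35571, 43710 and 47033 counts with DMSO and 26933, 26530 and 25943 at 500 nM. At the contacts with initiation factors and viral entry sites, RPS25, RPSA and RPS19 fell by 0.43, 0.61 and 0.64. Of the 8 tunnel proteins 7 fell, as did 41 of the 46 large-subunit members and 9.83% of all genes. RPL19 at -0.35 did not pass. RPL3, RPL10 and RPL8, around the peptidyl transferase centre and the tRNA sites, fell by 0.57, 0.57 and 0.52. RPL36A there was at -0.69 without passing (adjusted p = 0.057), on the lowest counts of any member, and its read-through row RPL36A-HNRNPH2 had 56.4 to 150.

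RPS6 fell from 83150, 104266 and 109558 counts to 65356, 66670 and 63360 (log2 -0.59, adjusted p = 0.012). RPS2 and RPS3 at the mRNA entry fell by 0.54 and 0.70. RPS23 at the decoding site fell by 0.57, while RPS15 there was at -0.34 without passing. In the P stalk RPLP2 fell by 0.49, and RPLP0 (-0.37, adjusted p = 0.083) and RPLP1 (-0.32, adjusted p = 0.15) did not pass.

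RPS26 and FAU were among the members that changed least. RPS26 had 6409, 6545 and 7127 counts with DMSO, 6686, 7244 and 5499 at 100 nM, and 5568, 6045 and 5407 at 500 nM (-0.24, adjusted p = 0.13). FAU had 13420, 13928 and 14641, then 14269, 14678 and 10775, then 11992, 11988 and 10815 (-0.27, adjusted p = 0.12). At 100 nM, replicates 1 and 2 of RPS26 and FAU lay among or above the DMSO libraries and replicate 3 lay below all of them. Replicate 3 of that group was low over the set, with a median member 0.36 below its partners.

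At 100 nM 43 members fell and none rose (median -0.37), where 11.6% of all genes fell. Both doses were set against the same DMSO libraries. In 63 of the 77 every 100 nM library lay below every DMSO library, as in 18.6% of all genes. RPL17 (-0.67), RPL12 (-0.63), RPS3A (-0.61), RPL5 (-0.60) and RPL13A (-0.57) were lowest. RPS26 (-0.06), FAU (-0.09) and RPS15 (-0.16) were highest.

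Between 500 nM and 100 nM in LNCaP no member was called by limma, edgeR or DESeq2, and 0.00779% of all genes were called by limma. At an unadjusted p under 0.05 limma gave 0 members, and 11.4% of all genes. The differences ran from -0.26 for RPL36A (95% interval -0.77 to 0.25) to -0.03 for RPL10 (-0.32 to 0.26), so a further fall within these intervals was not detectable with 3 libraries a dose.

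The LNCaP counts depended on single libraries. Against the 65 called at 500 nM, leaving out DMSO replicate 2 gave 25 and leaving out DMSO replicate 3 gave 21, and without replicates 1, 2 and 3 of 500 nM there were 36, 38 and 21; the median stayed between -0.56 and -0.46. Against the 43 called at 100 nM, 11 and 9 were called without DMSO replicates 2 and 3, and 25 without either of replicates 2 and 3 of 100 nM. Fewer libraries leave less power for every gene, and the percent of all genes called in these fits is not given here. The lower counts are therefore no result about the members alone. Mitosis genes in the same DMSO libraries had a mean log2 level of 10.1, 8.58 and 8.36 (summed level 5645 to 17596). With drug it was 9.87 to 10.8 (14977 to 28563), above DMSO replicates 2 and 3 but on both sides of replicate 1. Of the mitosis genes, 11 of 12 were higher at 100 nM and 3 of 12 at 500 nM (13.7% and 11.0% of all genes were). Replicates 2 and 3 alone, without replicate 1 of either group, gave 69 members lower at 500 nM. The part of cell cycling in the members' fall was not tested.

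**Figure D3:**
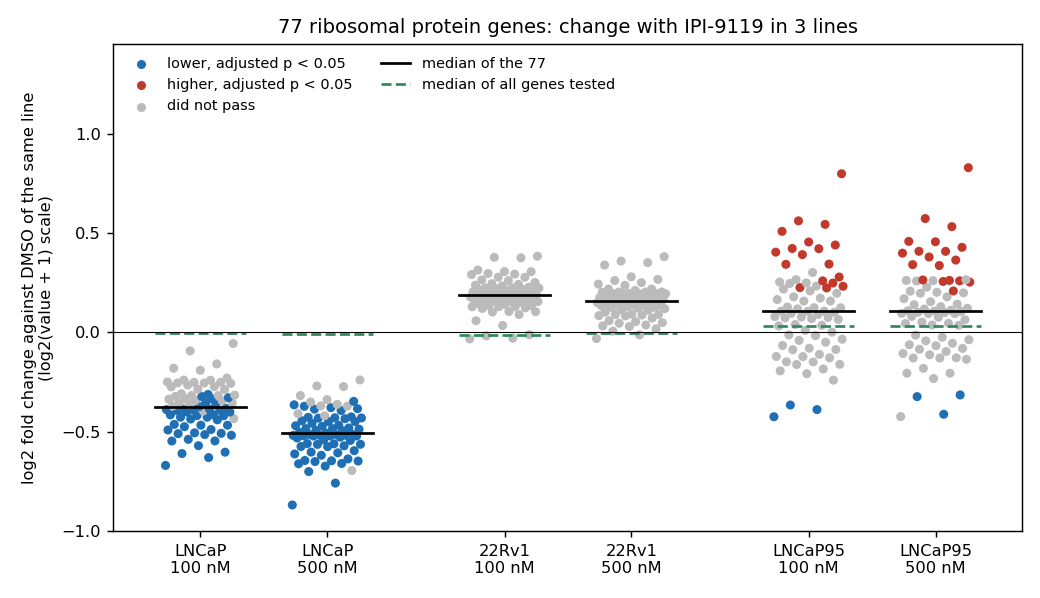
Log2 fold change of each of the 77 members (points, y axis) for either dose against DMSO of the same line (x axis); blue and red points passed the test downward and upward, solid lines are the members' medians and dashed lines the medians of all genes tested. LNCaP values all lie below 0 (medians -0.37 and -0.51), 22Rv1 values lie mostly above 0 with none called, and LNCaP95 values spread to both sides.

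In 22Rv1 no member was called at either dose by limma, edgeR or DESeq2, where 6.97% of all genes were called at 500 nM and 6.55% at 100 nM. At an unadjusted p under 0.05, limma gave 3 members at 500 nM and 4 at 100 nM, where 22.9% and 22.0% of all genes passed. Values were mostly positive, with medians of 0.16 at 500 nM and 0.19 at 100 nM. In 20 of 77 members every 500 nM library lay above every DMSO library, against 15.2% of all genes, and in none at 100 nM, against 11.0%.

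The highest at 500 nM were RPL37 (log2 0.38, 95% interval 0.05 to 0.71, adjusted p = 0.16), RPL28 (0.36) and RPL12 (0.35). RPL12 had 23302, 20154 and 20088 counts with DMSO, 25093, 36330 and 22955 at 100 nM, and 28040, 25933 and 26937 at 500 nM. Its intervals leave room for a rise of up to 0.67 at 500 nM. RPL17, the lowest, was at -0.03 (-0.32 to 0.26). The 100 nM median rested on replicate 2: it was 0.00 without that library and 0.33 without replicate 3, when 3 members passed upward.

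Between the 2 doses in 22Rv1 no member was called by limma, edgeR or DESeq2, nor at an unadjusted p under 0.05 by limma. Of all genes 0.00% were called, and 1.12% passed unadjusted. Mitosis genes in 22Rv1 had a mean log2 level of 11.42 to 11.47 with DMSO. It was lower in every treated library, 11.13 to 11.25 at 100 nM and 11.11 to 11.23 at 500 nM. The part of cell cycling in the members' values was not tested here either.

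In LNCaP95 members were called in both directions, mostly upward, and at a lower rate than all genes. At 500 nM 19 rose and 3 fell, 22 of 77 (28.6%), in a line where 52.3% of all genes were called, 28.2% higher and 24.1% lower. Their median was 0.11 against 0.03 over all 12844 genes tested. With replicate number as a block, 28 rose and 7 fell, where 60.6% of all genes were called; the numbers pair the libraries in this line. In 17 members every 500 nM library lay above every DMSO library (31.6% of all genes) and in 3 below (27.3%). At 100 nM 18 rose and 3 fell, again beside 52.3% of all genes (28.2% higher, 24.1% lower), and with the block 26 rose and 9 fell (61.0% of all genes). The DMSO libraries are shared by both doses.

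RPS27, a zinc-finger protein on the small subunit, rose most. It had 9087, 5796 and 9185 counts with DMSO, 13525, 13582 and 13839 at 100 nM, and 13236, 14276 and 14327 at 500 nM (log2 0.83 ± 0.14 SE, adjusted p = 0.00027). RPL10, which helps to place the tRNA and is among the last proteins to join the large subunit, had 13005, 10734 and 12506, then 16743, 18201 and 17730, then 16130, 18139 and 18032 (0.53, adjusted p = 0.00034). In both genes DMSO replicate 2 was the lowest library and every treated library exceeded every DMSO library. Without DMSO replicate 2 the rise of RPS27 was 0.61 (adjusted p = 6.4e-05) and that of RPL10 0.45 (0.0013).

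Other members that rose included RPL28 (0.41), which was the lowest member of this line relative to LNCaP, and RPL22 (0.38, from 3770, 3664 and 3906 counts to 4683, 5172 and 4904), which was the least different. In the P stalk RPLP1 (0.26) and RPLP2 (0.21) rose, and RPLP0 was at 0.09. Of the reference genes RPL13A (0.34) and RPS18 (0.43) rose. Neither RPL5 (0.09) nor RPL11 (0.26) passed, and RPS6 was at 0.12.

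RPS2, at the mRNA entry, had 24491, 27476 and 23457 counts with DMSO, 16206, 20616 and 19579 at 100 nM, and 15930, 21138 and 19933 at 500 nM (log2 -0.41 ± 0.12 SE, adjusted p = 0.013). RPS26 had 3511, 4538 and 3363, then 2726, 3027 and 2899, then 2670, 3364 and 3050 (-0.32, adjusted p = 0.026). RPL24, which forms a bridge between the subunits, had 14146, 16331 and 13254, then 10681, 11879 and 11303, then 10275, 12760 and 12152 (-0.31, adjusted p = 0.020). DMSO replicate 2 was the highest library in all 3, and replicate 2 was also the highest of its group at both doses. The fits with a library left out had no replicate block, so they did not allow for this pairing. Without DMSO replicate 2, RPS2 was at -0.35 (adjusted p = 0.051), RPS26 at -0.19 (0.11) and RPL24 at -0.23 (0.077). None of the falls passed there. Without 500 nM replicate 1 they did not pass either, at -0.29 (0.058), -0.24 (0.11) and -0.22 (0.085), and RPS26 was lost without 500 nM replicate 3 as well (0.053).

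The count at 500 nM was 13 without 500 nM replicate 2, and 10, 8 up and 2 down, without replicate 2 of every group. At 100 nM it was 13 without 100 nM replicate 2, and 14 without replicate 2 of every group. All 12 mitosis genes were lower with 500 nM (median -1.41), with summed levels of 43655 to 48461 with DMSO and 12212 to 18093 at 500 nM, and replicate 2 of both doses carried the high mitochondrial shares. The part of either in the members' changes was not tested. Between the 2 doses no member was called by limma, edgeR or DESeq2, nor at an unadjusted p under 0.05 by limma, with 0.00% of all genes called and 0.740% past the unadjusted threshold.

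**Figure D4:**
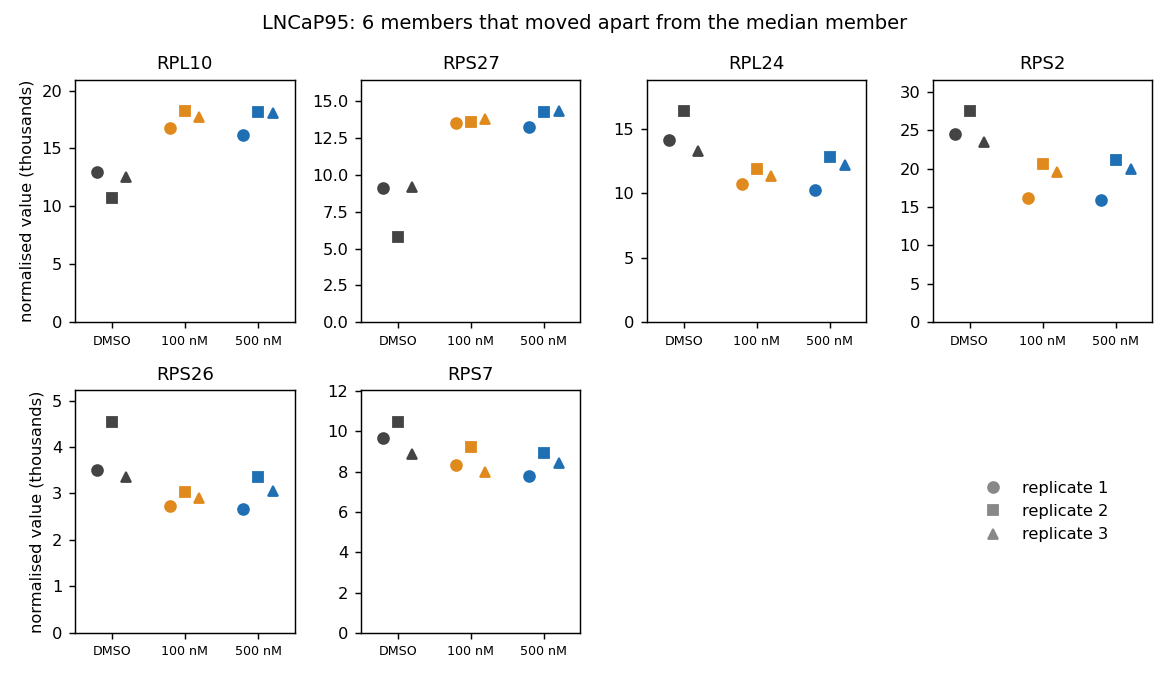
Normalised read counts divided by 1000 (y axes, from 0) of 6 members in the LNCaP95 libraries by dose (x axes), with marker shape for the replicate. RPL10 and RPS27 lie higher in all treated libraries, RPL24, RPS2, RPS26 and RPS7 lower in most; the 6 were picked, after their values were seen, from those called relative to the median member whichever library was left out.

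With libraries scaled to the median member, 7 members rose in LNCaP95 at 500 nM (16.8% of all genes did) and 8 fell (27.3%). RPS27 (0.71) and RPL10 (0.41) rose, and RPS2 (-0.53), RPS26 (-0.44), RPL24 (-0.43) and RPS7 (-0.32) fell, also with any 1 of the 6 libraries left out. Without 500 nM replicate 1 the total was 8, with 4 in either direction, and without DMSO replicate 2 it was 10. With the replicate block 12 rose and 13 fell.

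On the same scale 6 members rose in LNCaP at 500 nM and 2 fell, where 58.0% of all genes rose and 0.911% fell. RPS26 (0.29), FAU (0.26), RPLP1 (0.21), RPS15 (0.19) and RPL19 (0.18) were among those above the median member, and RPL17 (-0.34) and RPL12 (-0.23) stood below. These calls were fragile: without DMSO replicate 2, or without 500 nM replicates 2 or 3, only 1 remained, without DMSO replicate 3 there were 2, and without 500 nM replicate 1 there were 3. None of the named ones was called with each library left out. No member was called on this scale in 22Rv1.

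Whether the response differed between lines was tested in 1 fit of all 27 libraries. The 500 nM effect was higher in 22Rv1 than in LNCaP for 55 members and lower for none (median difference 0.66), where 6.79% of all genes were called higher. RPL12 (1.11, adjusted p = 0.00038), RPL37 (0.94) and RPS18 (0.92) differed most. RPS15 (0.32) and FAU (0.39) were among the least different and were not called.

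In LNCaP95 against LNCaP the effect was higher for 59 members and lower for none (median 0.62), where 19.8% of all genes were called higher. RPS27 (1.28, adjusted p = 5.4e-05), RPL10 (1.11) and RPS18 (1.06) differed most, and RPS26 (-0.08), RPS2 (0.13) and RPL24 (0.13) least. The tests of 22Rv1 and LNCaP95 share the LNCaP libraries.

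Between LNCaP95 and 22Rv1 the effect differed for 2 members, where 25.4% of all genes were called. RPS27 was 0.63 higher (adjusted p = 0.033) and RPS2 0.65 lower (adjusted p = 0.028). Neither passed with every library left out in turn: without LNCaP95 DMSO replicate 2, RPS27 was at 0.41 (adjusted p = 0.13) and RPS2 at -0.59 (0.073).

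**Figure D5:**
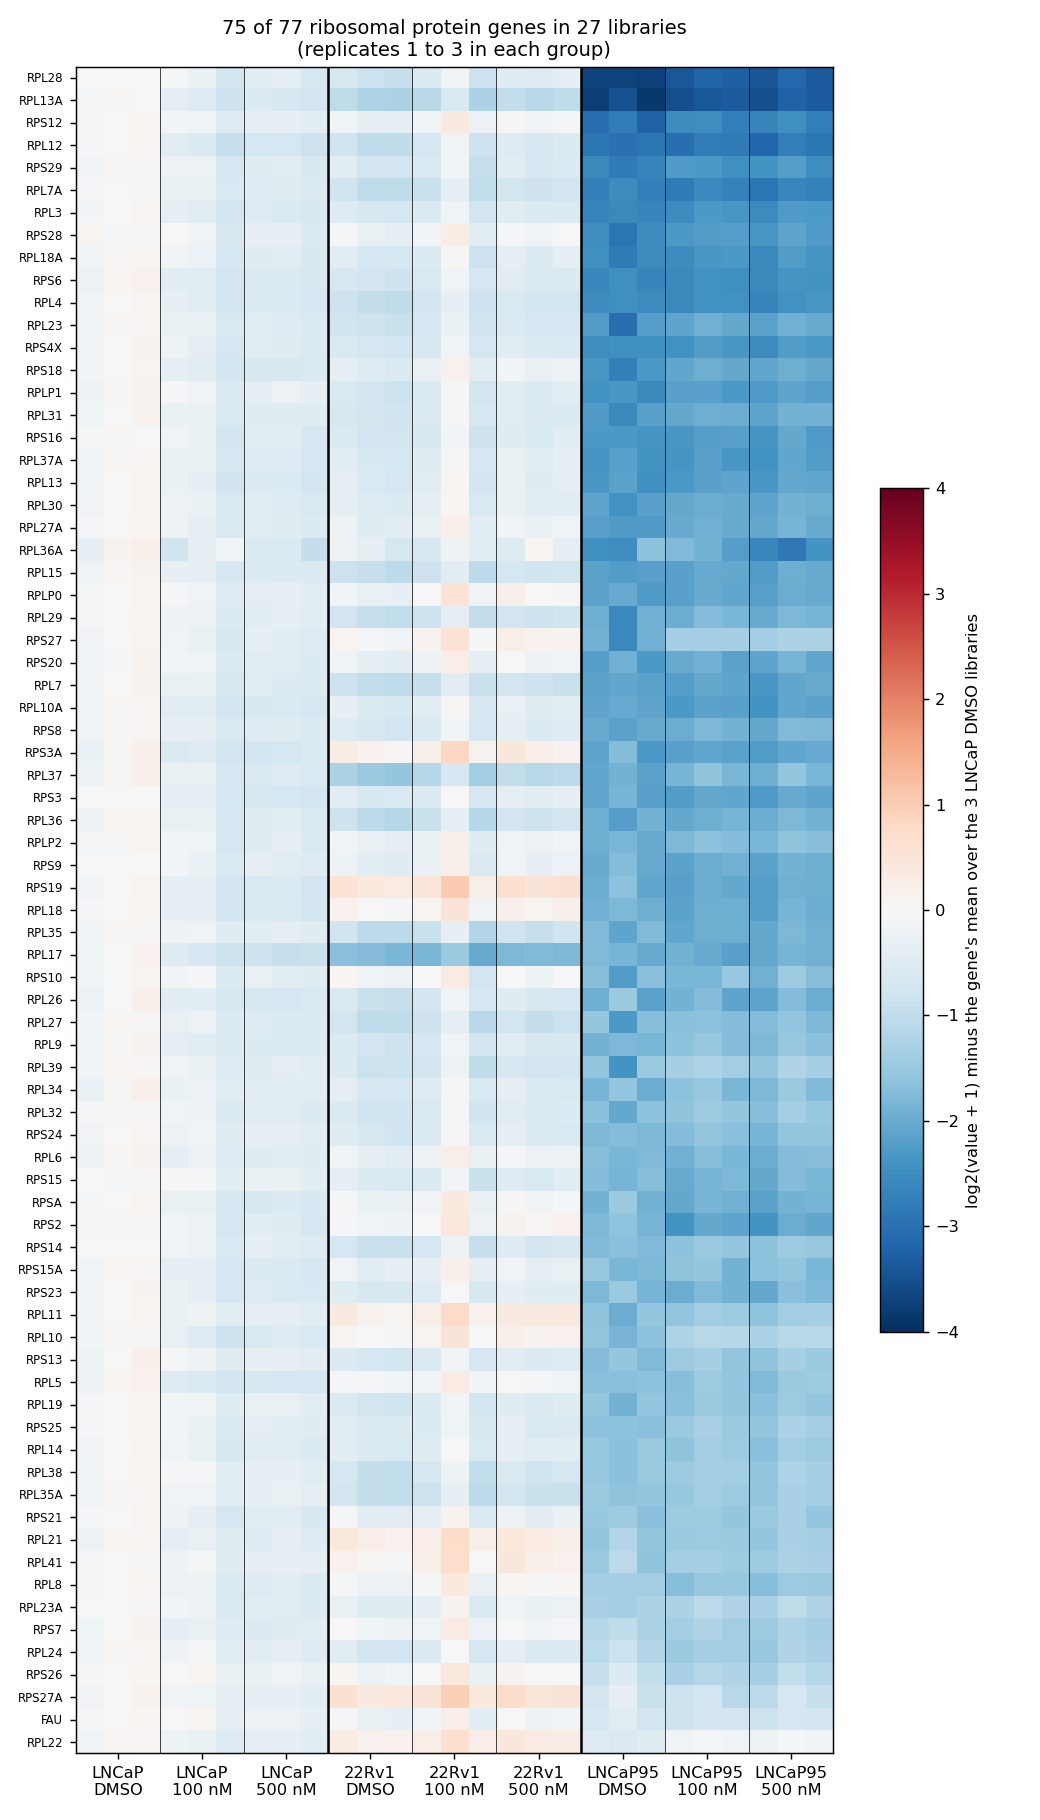
Level of 75 of the 77 members (y axis) in each of the 27 libraries (x axis, replicates 1 to 3 within a group), as log2(value + 1) minus the gene's mean over the LNCaP DMSO libraries. LNCaP95 columns are blue throughout, deepest for RPL28 and RPL13A, and replicate 2 of 22Rv1 at 100 nM is higher than its neighbours in most members.

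Members with and without a TOP start were set side by side, as a description. In LNCaP at 500 nM, 40 of the 47 with one fell (median -0.48), and 12 of the 16 without (median -0.52). In LNCaP95 at 500 nM the medians were 0.11 and 0.10, and between untreated LNCaP95 and LNCaP -1.89 and -1.86. They lay further apart in the other comparisons of untreated lines, at -1.61 and -1.25 in LNCaP95 against 22Rv1 and at -0.56 and -0.67 in 22Rv1 against LNCaP. The extremes were mixed: RPL12 has a TOP start and RPL17 has none at an annotated start, and both fell far in LNCaP. The window of RPL17 does show a pyrimidine run that opens with a C shortly before the annotated start. Its class therefore rests on the position of that start.

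Other mRNAs known to carry TOP tracts, 14 of them tested, moved in the direction of the ribosomal protein genes in LNCaP. At 500 nM 12 fell and none rose, with a median of -0.51, where 9.83% of all genes fell. EEF2, the factor that moves the ribosome along the mRNA, fell from 338235, 309916 and 325516 to 194513, 176496 and 165439 (-0.86, adjusted p = 0.0068), NAP1L1, a histone chaperone, by 0.63, PABPC1, the poly(A)-binding protein, by 0.60 and EEF1A1, which delivers tRNAs, by 0.57. At 100 nM 10 fell, where 11.6% of all genes fell. In 22Rv1 at 500 nM 1 of the 14 was called, PABPC1 (0.34), where 6.97% of all genes were called.

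In LNCaP95 at 500 nM 7 of the 14 rose and 2 fell, where 28.2% of all genes rose and 24.1% fell. TPT1, which codes for the tumour protein TCTP, rose from 20948, 17841 and 19950 to 40473, 41187 and 40110 (1.05, adjusted p = 2.2e-06), EEF2 rose by 0.47 and EEF1A1 by 0.46. NPM1 (-0.65) and HNRNPA1 (-0.52) fell. Between untreated LNCaP95 and LNCaP all 14 were lower (median -1.79; 31.8% of all genes were), led by EEF2 at -3.30.

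GNB2L1, the older symbol of RACK1 of the small subunit, falls outside the naming rule. It fell in LNCaP at 500 nM (-0.59) and was lower in untreated LNCaP95 than in LNCaP (-1.91).

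Paralogs that the naming rule leaves out were also read. RPL39L, a relative of the tunnel protein RPL39, lay at 439 to 793 in 22Rv1 and at 0 to 2.84 in the other lines. RPL10L, a relative of RPL10, lay at 0 to 1.06 in 22Rv1, at 122 to 202 in LNCaP and at 278 to 417 in LNCaP95. Such paralogs and the many ribosomal protein pseudogenes can share reads with members, so small values are uncertain. In treated LNCaP95 RPL10L (0.40) and RPL36AL (0.35) rose and RPL22L1 (-0.49) fell, where 28.2% of all genes rose and 24.1% fell. These paralogs were named for passing.

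The regulators of TOP mRNA translation or ribosome production named here were picked from a list for passing, and its other genes are not given. They moved in different directions. At 500 nM 9.83% of all genes fell and 11.0% rose in LNCaP, and 6.97% were called in 22Rv1. In LNCaP95 28.2% rose and 24.1% fell. EIF4EBP1, the inhibitor of cap binding that mTORC1 phosphorylates, had 4027, 3847 and 3639 counts in untreated LNCaP and 1755, 1889 and 1795 at 500 nM (-1.08, adjusted p = 4.6e-05), and it rose by 0.70 in LNCaP95. MYC, an activator of ribosome production, fell in LNCaP (-0.58) and in 22Rv1 (-0.46, adjusted p = 0.020), and was at -0.32 in LNCaP95 (adjusted p = 0.068). RPS6KB2, an S6 kinase, rose in LNCaP (0.58) and fell in LNCaP95 (-0.27).

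Dedicated chaperones escort new ribosomal proteins to the assembling subunits. Of 8, none was called in LNCaP at 500 nM, and GRWD1 (0.45) and TSR2 (0.35), escorts of RPL3 and RPS26, rose at 100 nM (13.7% of all genes did). In LNCaP95 at 500 nM 6 of 8 fell (median -0.50; 24.1% of all genes fell), among them GRWD1 (-0.62), LTV1 (-0.59) and TSR2 (-0.55). In untreated LNCaP95 6 chaperones were higher than in LNCaP and 1 lower, where 33.4% of all genes were called higher and 31.8% lower.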

How the data were processed

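Per the labels' protocols, poly(A)-selected mRNA was made into directional libraries and sequenced as paired ends in 27 libraries, 3 in each of 9 groups. Per the submitters' processing notes, STAR 2.3.1z4, featureCounts and DESeq were used with build hg19; the strand setting and the handling of overlapping genes are not given in the sources used here. The deposited table gives a normalised signal per gene, its read count divided by 1 size factor per library. All values were whole multiples of the worth of 1 read (0.757 to 1.39; tolerance 1e-06; 100% of values), so reads were recovered for the count models. Columns of no sample numbered 0.

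Values were tested as log2(value + 1), which understates changes of low genes, with limma 3.58.1 in R 4.3.3 (intensity trend, two-sided), over genes with a value of 10 in at least 3 fitted libraries. P-values were Benjamini-Hochberg adjusted over all genes tested, and an adjusted p under 0.05 counted as called. Doses were compared within a line in a fit of its 9 libraries; lines, and drug effects between lines, in a fit of all 27, which gives each gene 1 spread over the lines. No replicate pair agreed within counting noise. The script was tested on simulated data. Counts and medians cover all members, but a few genes are not reported here by name, nor shown in figures that name genes.

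In LNCaP95 the replicate number paired the libraries: deviations of same-numbered libraries from their group means correlated at 0.128 to 0.47 in 9 of 9 pairs, so blocked counts are given there. In LNCaP the 3 pairs of 500 nM with DMSO (0.131 to 0.316) and with 100 nM (0.263 to 0.389) were over 0.1, those of 100 nM with DMSO were not (-0.00305 to 0.0823), and in 22Rv1 4 of 9 were. Named genes were the members of the role groups, the 5 lowest and 3 highest members of each dose comparison with DMSO, the 3 lowest and 3 highest elsewhere, and up to 4 called genes of each other list. Members, role groups and lists were chosen with earlier results of these data known. Alternatives were a pseudocount of 10, no filter, scaling to equal totals, edgeR 4.0.16 quasi-likelihood and DESeq2 1.42.0 on recovered reads, no trend, 1 fit of all libraries, a replicate block, and each library left out.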

Additional observations from a re-analysis of the deposited data

Results flagged for a closer look

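The 500 nM effect differed between lines by the interaction test of limma over all 27 libraries (adjusted p under 0.05), and these differences are listed for a closer look. Between 22Rv1 and LNCaP it differed for 55 members, all higher in 22Rv1, where 6.79% of all genes were called higher. RPL12 was at 1.11, RPL37 at 0.94 and RPS18 at 0.92 on the log2 scale. LNCaP95 and LNCaP differed for 59 members, all higher in LNCaP95, where 19.8% of all genes were called higher. Here RPS27 was at 1.28, RPL10 at 1.11 and RPS18 at 1.06. For LNCaP95 against 22Rv1 the members called numbered 2, RPS2 at -0.65 and RPS27 at 0.63, where 25.4% of all genes were called. Neither of these 2 passed with every library left out in turn. Groups of 3 libraries were too small for a test of single outlying libraries.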

How the results depend on the processing

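Alternatives were read over 599 pairs of a named gene and a comparison. Of the alternative values 8180 kept their side of the threshold, 513 no longer passed and 84 newly passed, and no called change was reversed. Small changes that were not called could change sign. That of RPS26 in LNCaP at 100 nM turned positive without replicate 3 of that dose. Without a filter on low values, 25 members were called in LNCaP at 500 nM and 11 at 100 nM, 11 in LNCaP95 at 500 nM and 9 at 100 nM, and 0 in the difference of LNCaP95 and 22Rv1, where more genes were tested. That difference held 4 members with equal totals. The replicate block gave 35 members in LNCaP95 at either dose, and 25 relative to the median member at 500 nM; 1 fit of all 27 libraries gave 12 at 500 nM. Leaving out replicate 2 of every LNCaP95 group, chosen after seeing the data, gave 10 at 500 nM. The block gave 70 members in LNCaP at 500 nM, 45 at 100 nM and 0 in 22Rv1 at either dose. In LNCaP 7 of 9 same-numbered pairs correlated best with their own number, and in 22Rv1 4 of 9. With 1 library left out, the members called ranged from 21 to 70 in LNCaP at 500 nM and from 9 to 51 at 100 nM, from 0 to 3 in 22Rv1 at 100 nM, from 13 to 29 in LNCaP95 at 500 nM and from 13 to 21 at 100 nM, and from 0 to 3 in the difference of LNCaP95 and 22Rv1. Relative to the median member they ranged from 1 to 10 in LNCaP and from 8 to 14 in LNCaP95 at 500 nM. Except for the block in LNCaP95, the percent of all genes called under these settings is not given here. A higher or lower count is therefore no result about the members alone. Without mitochondrial genes in the total, mean shares were 11.2% in LNCaP at 500 nM, 11.8% in 22Rv1 at 500 nM, and 4.19% and 4.44% in LNCaP95 with DMSO and at 100 nM. The cause was not tested for any of these. Every member but RPL36A had over 225 counts in every library; changes smaller than the spread of 3 libraries a group could not be detected.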
